A study of Mus musculus with 16 samples.

Results

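The data described here are the RNA levels of 10 iron handling genes in newborn mice: Hamp, Hamp2, Bmp6, Hfe, Tfr2, Trf, Cp, Slc40a1, Fth1 and Ftl1. They were taken by symbol from a table of 25054 gene entries, in which each of the 10 had 1 entry, and were followed over all 16 libraries. The mice were C57BL/6J pups of Man1a2 heterozygous parents. Parents drank N-acetyl cysteine (NAC, an antioxidant that restores glutathione) at up to 1 g/kg body weight, or water as placebo, from 1 week before breeding until delivery. Pups fell into 4 groups: live WT and live Man1a2+/- (heterozygous), taken 24 h after birth, and dead Man1a2+/- and dead Man1a2-/- (null), taken when found dead within those 24 h, so that survival and age at collection cannot be told apart. WT pups were only among the live and null pups only among the dead, so survival is also mixed with genotype. Tests of survival took the pup groups of the same survival as replicates, whatever their genotype. The null allele lacks exon 2 of Man1a2, an enzyme that trims mannose from glycoproteins in the Golgi, and a count over the whole gene does not check the genotype labels. Each library was a pool of RNA from 3 experiments, or from 2 for dead heterozygous pups. One library was made for each pup group, treatment and labelled tissue (lung or liver), which gave 8 placebo and 8 NAC libraries.

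The tissue labels did not match the RNA in 9 of 16 libraries. By fixed limits on Sftpc, which encodes surfactant protein C of alveolar type II cells, and Alb, the albumin of hepatocytes, 7 libraries were lung-content, 8 were liver-content and 1 was mixed. Lung-content libraries had 4446 to 11758 counts per 1000000 counts (CPM) of Sftpc and at most 135 CPM of Alb, and liver-content libraries had 51003 to 101254 CPM of Alb and at most 3.10 CPM of Sftpc. The label agreed in 3 lung-content libraries (live WT NAC, live heterozygous NAC and dead heterozygous placebo) and went against the content in the other 4. It agreed in 4 liver-content libraries (live WT NAC, live heterozygous NAC, dead heterozygous placebo and dead null NAC) and went against the content in the other 4. The mixed library, labelled dead null placebo lung, had 5553 CPM of Sftpc and 9280 CPM of Alb. Libraries held 7236906 to 16107764 counts, and the ribosomal RNA symbol Rn45s took 4.05% to 26.2% of the lung-content and 0.845% to 6.29% of the liver-content libraries. Comparisons below follow content, with the values by label given after them. By the labels, no lung-content library came from NAC-treated null pups, and no liver-content library from placebo null pups. Pup group and treatment were read from the same labels as tissue and were not checked. Results by treatment, survival and genotype rest on them.

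Hepcidin, encoded by Hamp, is the liver hormone that lowers plasma iron: it binds ferroportin, the only known cellular iron exporter (Slc40a1), and leads to its degradation. Hepatocytes raise Hamp transcription when bone morphogenetic proteins such as BMP6 signal through SMAD proteins, with HFE and transferrin receptor 2 (Tfr2) as sensors of iron-loaded transferrin, and when interleukin-6 signals through STAT3. Iron travels in plasma on transferrin (Trf), is oxidised for loading by ceruloplasmin (Cp), and is stored inside cells in ferritin, a shell of heavy (Fth1) and light (Ftl1) chains whose translation, like that of Slc40a1, is held back by iron regulatory proteins bound to an RNA hairpin. RNA levels therefore do not give protein levels for these genes. On GRCm38 the genes other than the hepcidin pair lie at chr9:103204001-103230444 (Trf), chr5:137569840-137587481 (Tfr2), chr1:45908068-45926523 (Slc40a1), chr19:9980598-9985098 (Fth1), chr7:45457944-45459884 (Ftl1), chr13:38345107-38500302 (Bmp6), chr13:23702034-23710854 (Hfe) and chr3:19957054-20009145 (Cp).

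The mouse genome carries 2 hepcidin genes next to each other on the minus strand of chromosome 7 (GRCm38), Hamp at chr7:30942368-30944032 and Hamp2 at chr7:30922372-30924681. Their RefSeq promoter windows (GRCm38.p6), each 300 bases from 250 bases before the transcription start to 50 after it, were identical in 276 of 303 aligned columns, with 21 substitutions and 6 gap columns. The 180 bases before each start are shown, because the pair was read so differently in the libraries. Capitals mark GGCGCC, the core of the BMP-responsive element, and TTCNNNGAA, a STAT site. Both motifs read the same on either strand and they do not overlap here. The stretches are chr7:30944030-30944209 for Hamp and chr7:30924182-30924361 for Hamp2, both on the minus strand. The Hamp2 stretch lies inside the gene span given above, which is from GENCODE and has an earlier start than RefSeq. The comparison of the pair therefore holds for the RefSeq starts.
Hamp: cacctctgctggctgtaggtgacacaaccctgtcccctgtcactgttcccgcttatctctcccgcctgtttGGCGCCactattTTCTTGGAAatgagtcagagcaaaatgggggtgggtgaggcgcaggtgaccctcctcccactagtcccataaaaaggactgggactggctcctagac
Hamp2: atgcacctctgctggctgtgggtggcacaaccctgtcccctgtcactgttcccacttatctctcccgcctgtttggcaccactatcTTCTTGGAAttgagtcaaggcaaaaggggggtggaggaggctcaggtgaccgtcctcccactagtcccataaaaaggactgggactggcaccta
GGCGCC began 109 bases before the Hamp start and was not found in the Hamp2 window, where the alignment has the substitution G145A, counted from 1 at the 5′ end of the Hamp window. TTCNNNGAA began 97 bases before the Hamp start and 94 before the Hamp2 start. Of 32851 windows of this length in the RefSeq table, 11.9% held GGCGCC and 8.3% held TTCNNNGAA. Among the 8 genes with a window there, Hamp alone held GGCGCC, and only Hamp and Hamp2 held TTCNNNGAA. Trf and Slc40a1 had no entry. Such matches describe the letters and not the binding of a factor.

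Hamp RNA was found where albumin RNA was found, and Hamp2 was near 0 everywhere. In the liver-content libraries of live pups, Hamp was at 71.8 CPM (WT placebo), 88.7 (WT NAC), 62.9 (heterozygous placebo) and 78.0 (heterozygous NAC). In those of dead pups it was at 63.1 (heterozygous placebo), 29.6 (heterozygous NAC), 128 (null NAC, labelled liver) and 153 (null NAC, labelled lung). Both dead null libraries were above all 4 live ones, dead heterozygous NAC was below them, and dead heterozygous placebo was at the lower end of the live range. In the 7 lung-content libraries Hamp had 0 to 3 counts each, 9 in all, against 10034 in the liver-content libraries. Per count sequenced this is a ratio of 577 (exact 95% interval 304 to 1260, counting error only).
Hamp2 had 12 counts over the 8 liver-content libraries, at most 3 in any of them, and 0 in the lung-content ones. In 3 libraries the Hamp count was not whole although it summed with Hamp2 to a whole number after rounding, for example 2155.9988 and 3.0013 counts in the liver-content library labelled dead null NAC lung. The transcripts of the 2 genes were identical in 388 of 437 aligned columns, with 22 substitutions and 27 gap columns, so the division of reads between them is uncertain and a level of Hamp2 apart from 0 was not shown.

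Ferritin and ferroportin RNA carry the hairpin that ties their translation to iron, the iron-responsive element. A search for its textbook form, a loop of CAGTGN whose last base is not G, closed by 5 paired bases and a bulged C, found it before the coding sequence of 3 of the 10 genes and of 18 of 22500 genes with a principal coding transcript in GENCODE M21 (0.08%). Each element is shown with the loop in capitals: Fth1 at chr19:9982732-9982760 (plus strand), Ftl1 at chr7:45459779-45459807 (minus strand) and Slc40a1 at chr1:45925465-45925493 (minus strand), all on GRCm38.
Fth1: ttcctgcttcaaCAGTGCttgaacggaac
Ftl1: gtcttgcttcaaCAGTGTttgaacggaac
Slc40a1: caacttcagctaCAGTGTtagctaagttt
The same form was found 4 times in the 3′ untranslated region of Tfrc, the transferrin receptor through which most cells take up iron, where it protects the RNA from decay.

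Trf and Tfr2, like Hamp, were higher in liver-content libraries, and Bmp6 was higher in lung-content ones. Trf had a median of 32041 CPM in liver-content libraries (22045 to 43102) and of 580 CPM in lung-content ones (199 to 1388), a ratio of medians of 55.2. Tfr2 lay between 158 and 299 CPM in liver-content libraries and had 25 counts in all in the lung-content ones, of which 5 libraries had 3 or fewer, a ratio per count sequenced of 547 (exact 95% interval 370 to 845). Bmp6 was lower in liver-content libraries (0.760 to 2.12 CPM) than in lung-content ones (15.4 to 33.8 CPM), by 17.9 times in the medians. For these genes the ranges did not overlap.
Slc40a1 was at a median of 195 CPM in liver-content against 29.4 in lung-content libraries, a ratio of 6.64. Cp was at 620 against 184 CPM, a ratio of 3.37. Fth1 was at 1593 against 836 CPM, a ratio of 1.90, and its lowest liver-content library (1337 CPM) was just above its highest lung-content one (1310 CPM). Ftl1 (2064 against 1091 CPM) and Hfe (20.9 against 15.8 CPM) overlapped between contents. Among the 14176 genes averaging 1 CPM or more, 13% were higher in every liver-content than in every lung-content library and 36.8% were lower in every one. These levels are a description and were not tested. In tissue RNA, fewer cells of a type and less RNA per cell cannot be told apart. TMM scaling shifted liver-content against lung-content libraries by 0.67 on the log2 scale of CPM, and by less for low genes in log2(CPM + 1). It left the direction of all 10 genes as it was. On the CPM scale the median gene was lower in liver-content libraries, at -0.54 in log2(CPM + 1).

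**Figure D1:**
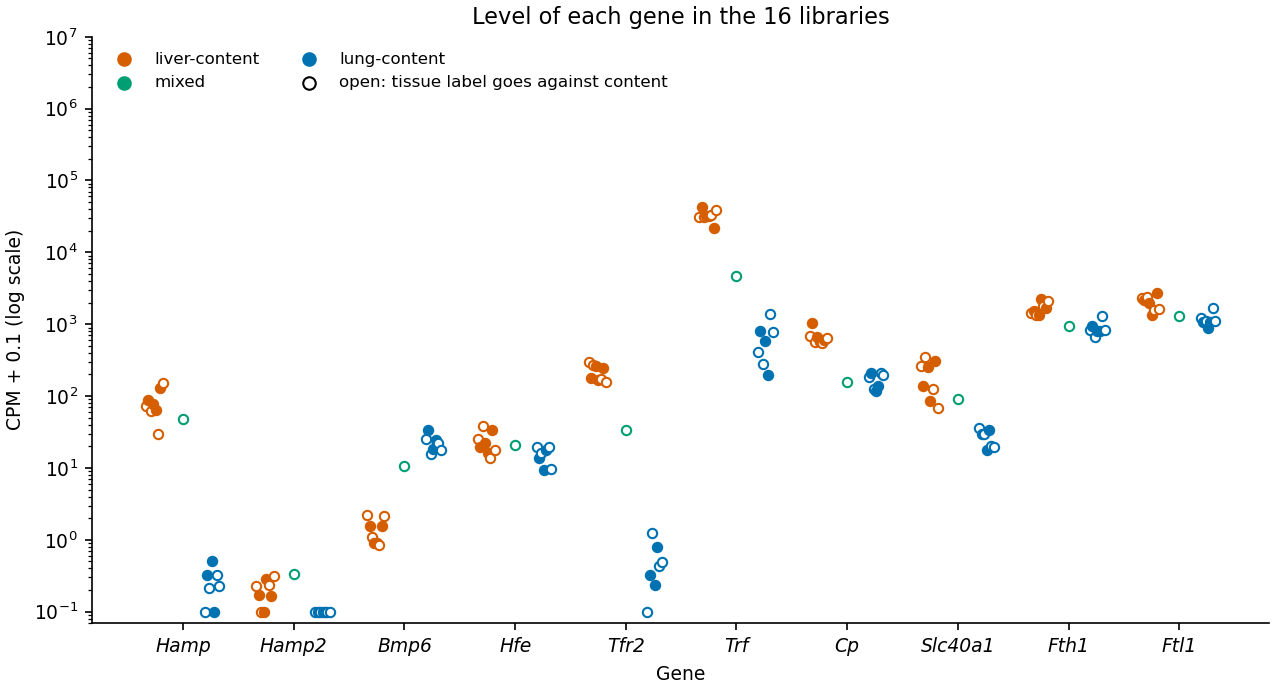
Each point is 1 library, with CPM + 0.1 on a log axis for the 10 genes, coloured by content, and open where the tissue label goes against the content. Hamp, Tfr2 and Trf are separated between liver-content and lung-content libraries by the widest gaps, Bmp6 is higher in lung-content libraries, and Hfe and Ftl1 overlap.

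Between genes, levels were compared as CPM per kilobase of the principal transcript. In liver-content libraries Trf led with a median of 12462, followed by Ftl1 (2132), Fth1 (1066), Hamp (183), Cp (154), Tfr2 (68.3), Slc40a1 (57.9), Hfe (5.84), Bmp6 (0.346) and Hamp2 (0.227). Neighbours in this order whose ranges overlapped were Ftl1 and Fth1, Hamp and Cp, Tfr2 and Slc40a1, and Bmp6 and Hamp2. In lung-content libraries Ftl1 led with a median of 1127, followed by Fth1 (560), Trf (226), Cp (45.7), Slc40a1 (8.73), Bmp6 (6.20), Hfe (4.43), Hamp (0.315) and Tfr2 (0.107). There the overlapping neighbours were Fth1 and Trf, Slc40a1 and Bmp6, Bmp6 and Hfe, and Hamp and Tfr2.

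Among liver-content libraries, Hamp and Slc40a1, the hormone and its target, had the widest ranges of the 9 genes other than Hamp2, with 5.17 and 5.09 times from the lowest to the highest library. Trf, Tfr2, Fth1, Ftl1 and Cp varied by 1.68 to 1.98 times, Hfe by 2.78 times and Bmp6 by 2.79 times. Relative to albumin, Hamp was nearly constant in live pups, at 0.873 to 0.924 Hamp reads per 1000 Alb reads. In dead pups the same measure was 0.661 (heterozygous placebo), 0.323 (heterozygous NAC), 2.51 (null NAC, labelled liver) and 1.51 (null NAC, labelled lung). In this ratio both dead heterozygous libraries were below all live ones and both dead null libraries above them. In CPM of Hamp, dead heterozygous placebo (63.1) was within the live range (62.9 to 88.7). The split therefore depends on Alb, which also set the content. The share of all genes that split in this way was not counted. The dead null library labelled liver also had the lowest Alb of the liver-content libraries (51003 CPM), which raises its ratio. The null libraries are both from NAC-treated pups, so genotype and treatment cannot be told apart within them, and no test of genotype was made.
Summed CPM of 10 acute-phase genes was 8463 and 16035 in the 2 dead null libraries and 12465 and 16057 in the 2 dead heterozygous ones, against 9245 to 15167 in live pups, and Saa2 was at or under 3 counts in every liver-content library.

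Ferritin heavy chain RNA separated dead from live pups in liver-content libraries, whereas the light chain did not. Fth1 was at 1438 CPM (WT placebo), 1518 (WT NAC), 1354 (heterozygous placebo) and 1337 (heterozygous NAC) in live pups. In dead pups it was at 2240 (heterozygous placebo), 1786 (heterozygous NAC), 1668 (null NAC, labelled liver) and 2075 (null NAC, labelled lung). All dead libraries were above all live ones. Fth1 was the 1 gene of 9 tested here whose dead and live libraries did not overlap, beside 2.81% of all genes.
Ftl1 was at 2312, 2139, 2384 and 1989 CPM in the live libraries in the same order, and at 1365, 1595, 2701 and 1632 CPM in the dead ones, which lay on both sides. The ratio of Fth1 to Ftl1 was accordingly 0.57 to 0.71 in live pups and 0.617 to 1.64 in dead pups, with the dead null library labelled liver (0.617) inside the live range.
In edgeR's quasi-likelihood test with survival and treatment as terms, Fth1 was higher in dead pups by 0.53 (log2 fold change, SE 0.21, 95% interval 0.05 to 1.00), with a Benjamini-Hochberg adjusted p of 0.78 over 12993 genes. The difference did not pass the threshold of 0.05. With only the 4 libraries whose label matches their content it was 0.09, although both dead libraries stayed above both live ones in CPM. The only placebo library among them is taken up by the treatment term. That value therefore compares the dead null NAC library labelled liver with the live NAC libraries.

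Slc40a1, the iron exporter of macrophages, hepatocytes and enterocytes, was at 261 (WT placebo), 136 (WT NAC), 349 (heterozygous placebo) and 254 CPM (heterozygous NAC) in liver-content libraries of live pups. In dead pups it was at 86.0 (heterozygous placebo), 127 (heterozygous NAC), 311 (null NAC, labelled liver) and 68.6 CPM (null NAC, labelled lung). Of the dead libraries 3 were below all live ones, and the fourth was near the top of the live range. The log2 difference, dead minus live, was -0.75 (SE 0.50, interval -1.90 to 0.40, edgeR adjusted p = 0.78). With only the 4 libraries whose label matches their content it was 0.56. The only placebo library among them is taken up by the treatment term. That value therefore compares the dead null NAC library labelled liver with the live NAC libraries.
Summed CPM of 10 macrophage and Kupffer cell markers was also lower in the 3 dead libraries with low Slc40a1, but did not follow Slc40a1 among live ones. It was 625 to 774 in live pups, 361 to 562 in the 3 dead libraries with low Slc40a1 and 769 in the fourth. Slc40a1 per 1000 CPM of these markers was 181 to 454 in live and 122 to 405 in dead pups, which overlap. The part of these cells in the difference was not tested further.
None of the 10 markers was higher in dead pups, and none passed the test. Tfr2 was at 177 to 299 CPM in live and 158 to 243 CPM in dead pups, a log2 difference of -0.37 (SE 0.21, edgeR adjusted p = 0.78).

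**Figure D2:**
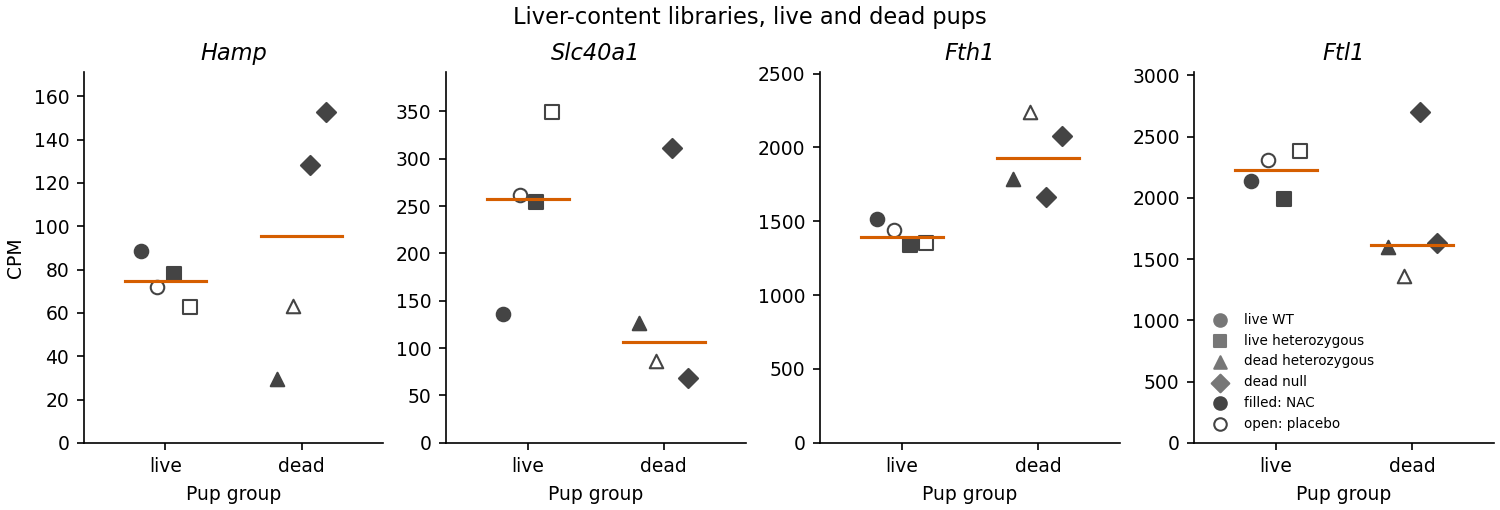
CPM of Hamp, Slc40a1, Fth1 and Ftl1 in the 8 liver-content libraries, with 1 point per library, shape for pup group, fill for treatment and a line at each median. The 4 dead libraries lie above the 4 live ones for Fth1, and on both sides of them for Hamp, Slc40a1 and Ftl1.

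No gene at all passed an adjusted p of 0.05 between dead and live pups in liver-content libraries (0% of 12993, with 702 genes at an unadjusted p under 0.05 by edgeR and 45 passing by DESeq2). The 9 iron genes tested had a median log2 difference of -0.28, against 0.01 over all genes, and 2 of them, Fth1 and Hamp, were on the higher side in dead pups. Hamp differed by 0.22 (SE 0.47, interval -0.86 to 1.30), Trf by -0.08 (SE 0.29), Ftl1 by -0.29 (SE 0.23), Cp by -0.35 (SE 0.24), Hfe by -0.28 (SE 0.33) and Bmp6 by -0.07 (SE 0.54). Hamp2 was under the limit of 1 CPM and was not tested.
Between NAC and placebo in liver-content libraries again 0% of 12993 genes passed (260 at an unadjusted p under 0.05 by edgeR, and 1 passing by DESeq2). Hamp differed by 0.52 on the log2 scale, NAC minus placebo (SE 0.50, interval -0.61 to 1.65), and by -0.13 with pup group in place of survival as a term. By pup group it went from 71.8 to 88.7 CPM in live WT, from 62.9 to 78.0 in live heterozygous and from 63.1 to 29.6 in dead heterozygous pups, so the NAC value was higher in 2 pairs and lower in 1. The other 8 genes differed by between -0.16 (Hfe) and 0.32 (Cp), with every interval spanning 0. None of the 9 genes had NAC and placebo libraries apart, beside 1.32% of all genes.

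The mixed library held liver RNA beside lung RNA, and Hamp stood high in it for that amount of liver RNA. Its 412 Hamp counts, 47.9 CPM, were 64.0% of the liver-content median. The 12 hepatocyte markers were at 10.4% to 57.2% of their liver-content medians, with a median of 18.6%. Trf (14.6%) and Tfr2 (16.1%) lay near that median. A set of 246 genes, Hamp included, is typical of the liver-content libraries (a median of at least 50 CPM there, and every library over 10 times every lung-content one). Of these, 8 were at or above the share of Hamp, with Hamp itself counted among the 8. Hamp reads per 1000 Alb reads were 5.16 in this library, the highest of the 9 libraries with Hamp above 3 counts. It is labelled dead null placebo lung, so that the 3 libraries with the most Hamp per Alb read all carry the label dead null. Alb also set the content, and at 10.4% it was the lowest of the 12 markers here. The place of this library in that order therefore depends on Alb as well as on Hamp.
The markers Cps1 (57.2%), G6pc (52.8%) and Tat (49.3%), metabolic enzymes of the perinatal liver, were also high in it, whereas Alb (10.4%) and Afp (11.1%) were low. One library gives no replicate check, and the comparison was chosen after its values were seen.

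**Figure D3:**
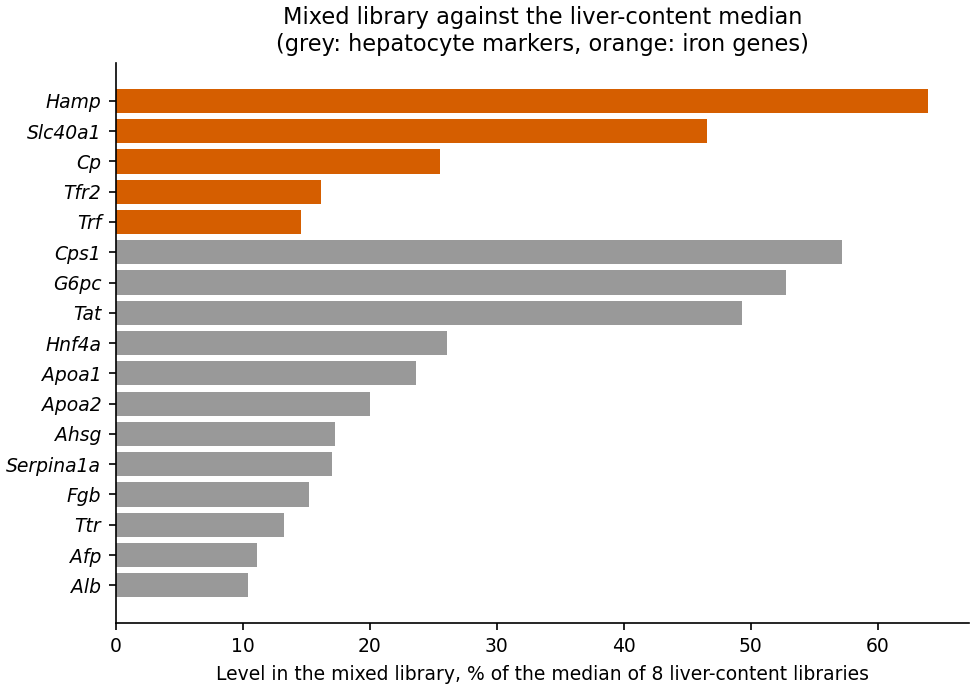
Bars give the CPM of the mixed library as a percentage of the median of the 8 liver-content libraries, for 12 hepatocyte markers (grey) and 5 iron genes (orange). Hamp reaches 64.0%, above all 12 markers, while Trf and Tfr2 lie among the lower ones.

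In lung-content libraries, ferritin heavy chain and transferrin RNA were higher in CPM with NAC in each of the 3 pup groups that had both treatments, and ferroportin RNA was lower in each. Of all genes averaging 1 CPM or more, 15.7% were higher in all 3 pairs and 47.1% were lower. Fth1 went from 836 to 953 CPM in live WT, from 670 to 811 in live heterozygous and from 793 to 1310 in dead heterozygous pups, and was at 838 CPM in dead null placebo. The 3 NAC values overlapped the 4 placebo values.
Fth1 rose by 0.63 on the log2 scale (SE 0.15, interval 0.29 to 0.98, edgeR adjusted p = 0.0332), the only iron gene of 7 tested to pass. With library size alone as the scaling in place of TMM, Fth1 had 0.41 (adjusted p = 0.235) and did not pass, and Trf had 1.19 (adjusted p = 0.0496). Of all 13990 genes 13.3% passed in this comparison (1866 genes, 1092 higher and 774 lower), so 1 of 7 is close to the background.
Trf went from 414 to 794 CPM in live WT, from 280 to 580 in live heterozygous and from 199 to 1388 in dead heterozygous pups, and was at 787 CPM in dead null placebo. Its log2 difference was 1.38 (SE 0.41, interval 0.47 to 2.30), with an adjusted p of 0.053 in edgeR's test. With pup group as the term in place of survival, which pairs NAC with placebo within a group, Trf passed (1.87, adjusted p = 0.00418), as did Cp (0.50, adjusted p = 0.0352) and Fth1 (0.68, adjusted p = 0.00882), among 3585 genes in all. Lung-content libraries had 2077 to 33723 Trf reads per 1000 Alb reads, against 339 to 449 in liver-content libraries. Limits on Alb set the content, so a gap in this ratio is largely built in. The source of the Trf RNA was not tested.
The other 5 genes did not pass with survival as the term. Slc40a1 went from 35.3 to 29.4 CPM in live WT, from 29.8 to 17.4 in live heterozygous and from 34.1 to 20.2 in dead heterozygous pups, and was at 19.8 CPM in dead null placebo. Bmp6 differed by 0.47 (SE 0.22), Cp by 0.37 (SE 0.20), Ftl1 by 0.32 (SE 0.17), Hfe by 0.08 (SE 0.23) and Slc40a1 by -0.23 (SE 0.19). Hamp, Hamp2 and Tfr2 averaged under 1 CPM and were not tested. On the CPM scale none of the 7 had NAC and placebo libraries apart, beside 20.7% of all genes.

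The calls in this comparison changed with single libraries. Leaving out each of the 7 libraries in turn gave from 0 to 4085 genes, and no gene passed without the live WT placebo, the live heterozygous placebo or the dead heterozygous placebo library. Without the live heterozygous NAC library 1 gene passed, without live WT NAC 947, without dead heterozygous NAC 2147 and without dead null placebo 4085. Fth1 passed only in the last of these refits, with adjusted p from 0.0607 to 0.156 in the other 6 and a log2 difference of 0.58 to 0.69 throughout.
With only the 4 libraries whose label goes against their content, Fth1 had 0.50, Trf 0.67 and Hfe 0.89. Dead heterozygous NAC is the only NAC library among them. These values therefore compare it with dead null placebo, and treatment and genotype cannot be told apart in them. The 3 libraries whose label agrees could not be fitted alone, since survival and treatment coincide in them.

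**Figure D4:**
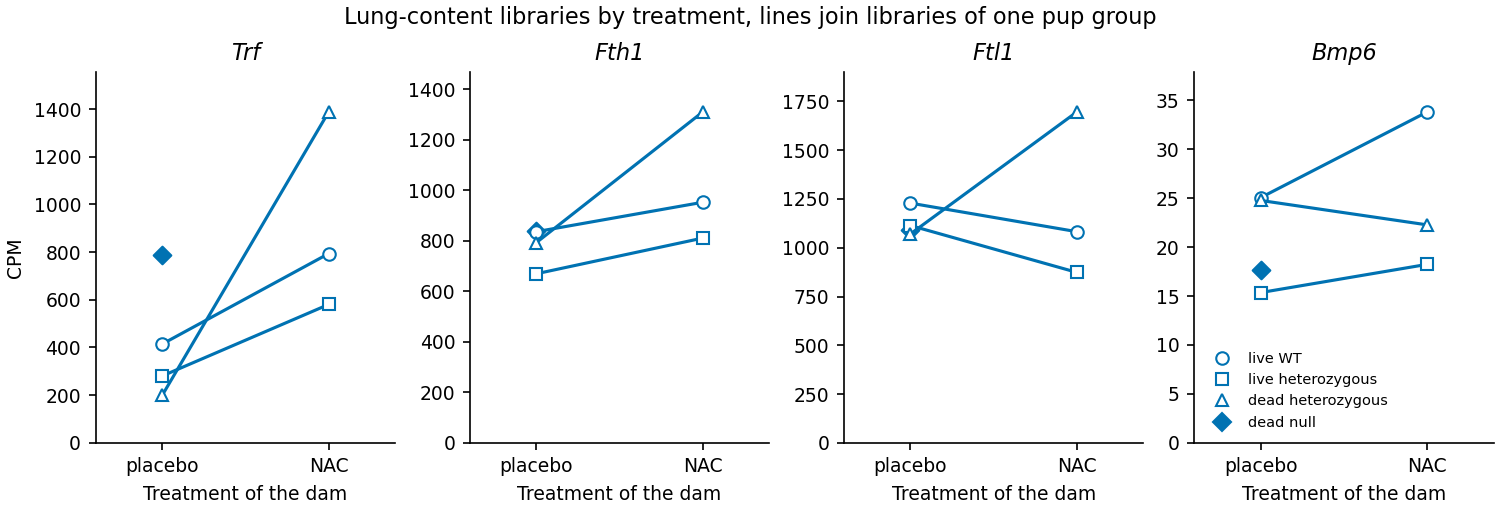
CPM of Trf, Fth1, Ftl1 and Bmp6 in the 7 lung-content libraries by treatment, with lines joining the libraries of 1 pup group and a filled diamond for dead null placebo, which has no NAC partner. All 3 lines rise for Trf and Fth1, and they cross or diverge for Ftl1 and Bmp6.

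Between dead and live pups no gene passed in lung-content libraries by edgeR's test (0% of 13990 genes, 507 at an unadjusted p under 0.05, and 19 passing by DESeq2). Fth1 was 0.37 higher in dead pups (SE 0.15, unadjusted p = 0.0379, adjusted p of 1), Trf 0.83 higher (SE 0.41) and Slc40a1 -0.18 (SE 0.19). None of the 7 genes had dead and live libraries apart, beside 1.67% of all genes.
With only the 4 libraries whose label goes against their content, which leaves 1 residual degree of freedom, Trf had 1.55, Cp 0.68 and Fth1 0.51. The only NAC library among them is taken up by the treatment term. These values therefore compare dead null placebo with the live placebo libraries.
A fit over both contents asked whether an effect differed between them. For NAC, Fth1 differed by -0.70, liver-content minus lung-content (SE 0.29, unadjusted p = 0.0301, edgeR adjusted p = 0.318), and 0% of 14175 genes passed (1951 at an unadjusted p under 0.05). For survival, 1 gene passed (0.00705%), which was none of the 10.

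**Figure D5:**
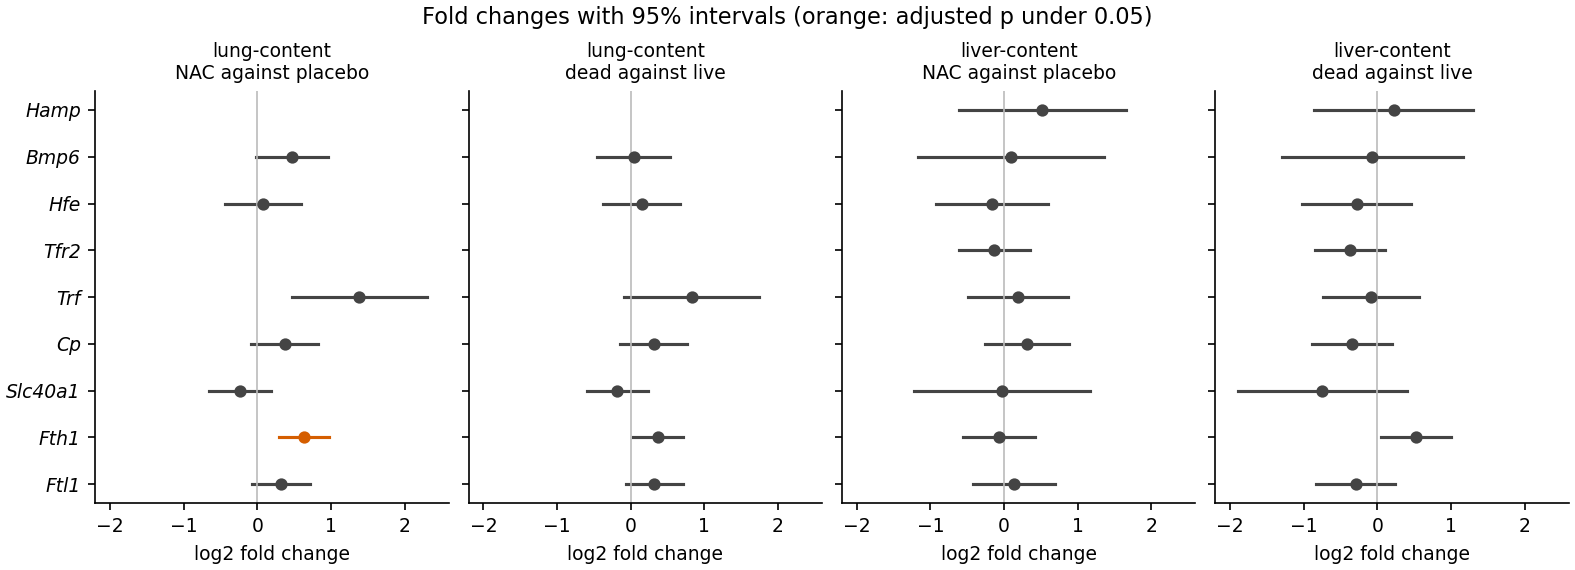
Log2 fold changes from edgeR's quasi-likelihood fits with 95% intervals for the iron genes tested in each of the 4 comparisons within a content, with orange for an adjusted p under 0.05. Fth1 with NAC in lung-content libraries is the 1 orange point, and the intervals of Hamp, Bmp6 and Slc40a1 in liver-content libraries are the widest.

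By the tissue labels, the same genes show swings that follow content. In none of the 8 pairs of a NAC and a placebo library with the same pup group and tissue label did both libraries have the same content. Among libraries labelled liver, Hamp was at 0, 0.115, 63.1 and 0.129 CPM with placebo and at 88.7, 78.0, 0.219 and 128 CPM with NAC, in the order of live WT and live heterozygous pups and then dead heterozygous and null ones. Among those labelled lung it was at 71.8, 62.9, 0 and 47.9 CPM with placebo and at 0.226, 0.415, 29.6 and 153 CPM with NAC.
With pup group as a block, Hamp differed by 8.998 on the log2 scale between NAC and placebo in libraries labelled liver (SE 4.62, edgeR adjusted p = 0.684) and by -2.04 in those labelled lung (SE 7.89, adjusted p of 1). In either labelled tissue 0% of genes passed (14266 and 14086 tested, 63 and 312 at an unadjusted p under 0.05). By DESeq2, 720 genes passed in libraries labelled liver, among them Hamp, Tfr2 and Trf, and 28 in those labelled lung. In libraries labelled liver, leaving out the dead heterozygous placebo library gave 8455 genes and all 9 iron genes tested, and leaving out its NAC partner 8394 genes and all 9. These 2 libraries carry the content change in the opposite direction to the other 3 pairs.

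The wider pathway was described with 3 lists of companion genes. In the list of 24 hepcidin control genes (BMP, interleukin-6 and erythroid signals), 20 were tested in lung-content libraries. Of these 7 passed, all higher with NAC. Of all 13990 genes 13.3% passed in either direction, 1092 higher and 774 lower. That share is the background for each list count here. The 4 with the smallest p were Smad1, a signal carrier of BMP receptors (26.2 to 37.8 CPM with placebo and 44.8 to 50.7 with NAC, log2 difference 0.78, SE 0.14), Stat3, the factor behind interleukin-6 (0.72, SE 0.15), Furin, the protease that cuts prohepcidin (0.82, SE 0.18), and Bmp2, a ligand beside BMP6 (0.73, SE 0.16). Their adjusted p by edgeR lay between 0.0223 and 0.028. The median of the list was 0.50, against -0.02 over all genes. Hamp was at or under 3 counts in each lung-content library, so an effect of these genes on it could not be read there.
In the list of 26 uptake, transport and export genes, 24 were tested, and 3 rose and 3 fell. Mfsd7c (Flvcr2), a transporter of the FLVCR family, fell by 0.95 (SE 0.18) and Slc46a1, a transporter of haem and folate, fell by 1.32 (SE 0.36). Lcn2, which binds iron-carrying siderophores, rose by 0.67 (SE 0.15) and Slc39a14, an importer of iron not bound to transferrin, by 0.64 (SE 0.18). In the list of 16 genes of iron sensing, storage and use, 15 were tested, 2 rose and 1 fell. Bach1, the haem-sensing repressor of Hmox1 and ferritin genes, was at 80.7 to 114 CPM with placebo and at 195 to 240 with NAC, a rise of 1.405 (SE 0.24, edgeR adjusted p = 0.0211). Iscu, a scaffold for iron-sulphur clusters, rose by 0.56 (SE 0.15), and Abcb8, a mitochondrial transporter, fell by 0.80 (SE 0.18).
All 9 red cell markers tested were on the higher side with NAC in lung-content libraries, and 4 passed. The summed level over 10 markers was 344 to 822 CPM with NAC and 346 to 648 with placebo. From placebo to NAC it went from 373 to 443 in live WT, from 346 to 344 in live heterozygous and from 648 to 822 in dead heterozygous pups. The part of red cells in the differences was not tested. These calls share the dependence on single libraries given above. In the other 3 comparisons within a content, none of the 3 lists had a gene that passed.

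Other hepatocyte parts of the hepcidin pathway were also read in liver-content libraries. Hjv (listed as Hfe2), the BMP co-receptor hemojuvelin, was at 26.9 to 63.9 CPM, and Tmprss6, the protease that cuts hemojuvelin, at 151 to 301 CPM, against at most 1.83 and 1.39 CPM in lung-content libraries. Between dead and live pups they differed by -0.42 (SE 0.24) and -0.43 (SE 0.24), with edgeR adjusted p of 0.78 for both. Id1 and Smad7, which BMP signals induce, were at 6.89 to 43.3 and 6.02 to 11.8 CPM and differed by -0.41 (SE 0.61) and -0.36 (SE 0.25), without passing the test. These 4 genes were picked from the list for their known roles, with their values in view. The list as a whole did not share their direction. Of its 23 genes tested there, 15 were on the higher side in dead pups. Its median log2 difference was 0.11, against 0.01 over all genes, and none passed.

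Patterns like those of Hamp and Bmp6 were looked for by Pearson correlation of log2(CPM + 1). Over the 8 liver-content libraries and 8649 genes averaging 10 CPM or more, the genes most like Hamp were Tpd52 (r = 0.957), Vash1 (0.933), Sptan1 (0.922), Fam21 (0.919) and Ano6 (0.908). Over the 7 lung-content libraries and 9607 genes, those most like Bmp6 were Sumo3 (r = 0.961), Fam167a (0.959), Zfp800 (0.945), Ttll7 (0.945) and Mpv17l2 (0.938). The points share library, depth and content, and the highest of so many values is a description only.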

How the data were processed

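The authors trimmed adapters, aligned reads to the Ensembl mouse genome (build 38; mm10 in the submitters' notes) with the Omicsoft Sequence Aligner and deposited estimated counts per gene symbol, not normalized. The annotation release and the use of strand in counting are not given in the sources used here. Between 6.5% and 8.24% of values per library were not whole, and all were rounded before tests. CPM used each library's total. A value of at most 3 counts was treated as the floor.

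The 10 genes, the content limits (Sftpc at least 1000 CPM and Alb under 1000 for lung-content, Alb at least 50000 for liver-content) and the gene lists were chosen with earlier results of these data known. Within each content, edgeR 4.0.16 in R 4.3.3 fitted survival and treatment by quasi-likelihood with TMM scaling to genes averaging 1 CPM or more, with Benjamini-Hochberg adjustment over all of them. By label, pup group was the block. Named genes were the 10, companion genes that passed (up to 4 per list) and the 5 closest patterns. Alternatives were scaling, filter, DESeq2 1.42.0, model terms, label agreement and leaving out each library. The fits over both contents, the mixed library comparison, the counts of genes whose libraries do not overlap and those of pairs with one direction were added after seeing the data. Tested on simulated data with 200 changed genes, the fits of both contents recovered 200. They also called other genes, 5 in the lung-content fit and 10 in the liver-content fit. Recovery of differences as small as those given for the iron genes within a content was not tested. No 2 libraries of the same content agreed within sampling noise, which does not show that they came from different pups. Lung and liver libraries of a pup group may share pups, and the fits over both contents did not model this. The 2 liver-content libraries labelled dead null NAC may also share pups. The p-values measure the spread between libraries. Sequences came from RefSeq windows (GRCm38.p6) and GENCODE M21, with Biopython 1.88, pandas 2.3.3, numpy 2.4.6 and scipy 1.17.1 in Python 3.11.15.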

Additional observations from a re-analysis of the deposited data

Results flagged for a closer look

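Of 18 sets of levels looked at (a gene within a content), 2 had a highest library that stood apart from the others by Dixon's criterion, where chance gives about 1 in 20. Ftl1 in the lung-content library labelled dead heterozygous NAC liver was at 1696 CPM, against 1229 CPM for the next of the 7 libraries. Fth1 (1310 CPM) and Trf (1388 CPM) were also highest in this library, without passing the criterion. Cp in the liver-content library labelled live WT NAC liver was at 1025 CPM, against 688 CPM for the next of the 8.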

How the results depend on the processing

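In the comparisons within a content, the count of genes that passed moved as follows. For NAC against placebo in lung-content libraries, 872 genes passed with library size alone as the scaling and 3585 with pup group as the term in place of survival, and 0 to 4085 when each library was left out. The iron genes that passed numbered 2 without a filter on low counts (Fth1 and Trf) and 3 with pup group as the term (Cp, Fth1 and Trf). When each library was left out they numbered 0 to 3. The count also moved with only the libraries whose label goes against their content, of which 1 is NAC. For dead against live in lung-content libraries, 1 gene passed without the filter, 19 by DESeq2, and 2423 genes and 3 iron genes with only the libraries whose label goes against their content. For NAC against placebo in liver-content libraries 1 gene passed by DESeq2. For dead against live there, 1 gene passed without the filter, 45 by DESeq2, and 0 to 11 when each library was left out (11 without dead null NAC labelled liver). By label, DESeq2 gave 28 genes in libraries labelled lung, and 720 genes and 3 iron genes in those labelled liver, where leaving out each library gave 0 to 8455 genes and 0 to 9 iron genes. The cause was not tested.

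Log2 differences of genes that changed sign did so without passing the threshold before or after. In lung-content libraries Hfe (NAC) became -0.14 with library size alone, -0.077 with pup group as the term and -0.24 to 0.20 when each library was left out, and Cp (NAC) became -0.031 with only libraries whose label goes against their content. There, for dead against live, Bmp6 became -0.049 with library size alone, -0.078 without the treatment term and -0.12 to 0.31 when each library was left out, and Hfe became -0.53 with only libraries whose label goes against their content and -0.17 to 0.36 when each was left out. In liver-content libraries, NAC minus placebo became -0.13 for Hamp, -0.030 for Ftl1 and -0.30 for Bmp6 with pup group as the term. Among libraries whose label agrees, dead heterozygous placebo was the only placebo one. With only these, NAC minus placebo became -0.72 for Trf, 0.38 for Tfr2, 1.69 for Slc40a1, 0.90 for Hfe and -0.080 for Cp. With the mixed library it became 0.33 for Tfr2, 0.25 for Slc40a1, 0.20 for Fth1 and -1.11 for Bmp6. When each library was left out it ranged from -0.39 to 0.55 for Bmp6, -0.18 to 0.089 for Fth1, -0.13 to 0.26 for Ftl1, -0.55 to 0.085 for Hfe, -0.61 to 0.33 for Slc40a1 and -0.35 to 0.019 for Tfr2. For dead against live in liver-content libraries, only libraries whose label agrees gave 0.029 for Tfr2, 0.56 for Slc40a1, 0.26 for Ftl1, 0.23 for Bmp6 and 0.55 for Hfe, and the mixed library gave 0.92 for Bmp6. Leaving out each library gave -0.44 to 0.35 for Bmp6, -0.13 to 0.49 for Hamp, -0.54 to 0.049 for Hfe and -0.25 to 0.13 for Trf. In libraries labelled lung, NAC against placebo without the pup group block gave 0.27 for Hamp and 0.27 for Trf, and leaving out each library gave -1.33 to 2.24 for Bmp6, -1.12 to 1.36 for Cp, -0.21 to 0.97 for Fth1, -0.87 to 0.26 for Ftl1, -6.16 to 2.26 for Hamp, -8.99 to 2.78 for Tfr2 and -4.38 to 3.51 for Trf.

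For levels, liver-content over lung-content in log2(CPM + 1) moved by more than the spread within a content with TMM scaling for Tfr2 (7.28 to 7.68), Fth1 (0.92 to 1.595), Ftl1 (0.78 to 1.46), Bmp6 (-3.34 to -2.82), Hfe (0.57 to 1.21) and Cp (1.97 to 2.64). When the median of 12 lung and 12 liver markers set the content, which puts the mixed library with lung, Hamp moved from 6.07 to 5.39 and Tfr2 from 7.28 to 6.69. The lung-content libraries whose label agrees, and the liver-content ones whose label goes against their content, could not be fitted alone, since survival and treatment coincide or cannot be separated in them. By replicate number, no paired analysis was possible because each group has 1 library, all numbered 1. Pairing by pup group is the fit with pup group as the term, given above. Low counts limit Hamp2, and Hamp and Tfr2 in lung-content libraries, which were not tested.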
